A study of Arabidopsis thaliana with 14 samples.

Results

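The 8044 H3K9me2 peaks that the authors listed on chromosomes 1 to 5 of transgenic wild-type Arabidopsis thaliana (TWT) were set against all 1114 genes that the authors' deposited table lists as changed between a fen1 mutant and TWT. All members were taken, and distance to a peak played no part in their choice: every nuclear peak of the 8051 in the H3K9me2 list, of 32830 peaks in the 3 deposited TWT lists, and every gene of the table, each of which the authors had called on its RNA. FEN1 encodes flap endonuclease 1, a nuclease that removes flaps of single-stranded DNA when lagging-strand fragments are joined and when bases are repaired, and the series concerns its part in gene silencing. TWT and fen1 were both of the C24 ecotype, harvested untreated as whole seedlings 10 days old. All positions and distances below are those of the TAIR10 reference build, and whether they hold in the C24 genome was not tested. The labels name neither the transgene of TWT nor the kind of fen1 mutation. RNA was sequenced from 2 libraries per genotype, but the table holds 1 value per gene and genotype, in FPKM (fragments normalised for the length of the transcript and the depth of the library), and the H3K9me2 list comes from 1 library. No spread between replicates can therefore be given. Nothing says whether the RNA libraries came from separate cultures, so the authors' q-values may measure technical spread alone. H3K9me2 in fen1 was not analysed here, so every position below is that of the mark in TWT. FEN1 itself (AT5G26680, chromosome 5, 9311875 to 9315475, TAIR10) stood at 14.5 FPKM in TWT and 22.7 FPKM in fen1 per the authors' deposited table (log2 0.65, q = 0.00462), and its nearest H3K9me2 peak was 28275 bp away.

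Dimethylation of histone H3 at lysine 9 marks silent heterochromatin in plants. In Arabidopsis it is written by the SUVH enzymes, among them KYP, and is coupled to non-CG DNA methylation by the chromomethylases CMT3 and CMT2, so that each mark recruits the writer of the other. It lies mainly on transposons and repeats around the centromeres, with small islands in the chromosome arms, and genes next to such islands can be silenced with them. H3K27me3, the Polycomb mark, instead covers the bodies of developmentally silenced genes, and H3K4me3 marks the starts of active ones. In whole seedlings a mark present in some cells and RNA made in others cannot be told apart.

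Most genes that depended on FEN1 lay far from H3K9me2. Of the 1114 listed genes, 31 (2.78%) overlapped a peak, 33 (2.96%) lay under 1 kb from one, 106 (9.52%) lay 1 to 5 kb away and 944 (84.7%) lay over 5 kb away. The median distance to the nearest peak was 42363 bp for the 684 genes higher in fen1 (quartiles 14429 and 104296 bp) and 36922 bp for the 430 lower genes (quartiles 9928 and 85126 bp). All 1114 genes together had a median distance of 39154 bp to H3K9me2, 1735 bp to H3K27me3 and 0 bp to H3K4me3, since 53.8% of them overlapped an H3K4me3 peak. Conversely, 97.0% of the H3K9me2 peaks had no listed gene within 5 kb.

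Over the stretches between the outermost listed genes of each chromosome, 9.64% of all bases lay inside an H3K9me2 peak, but only 4 of the 1114 gene starts (0.359%) did. The share of bases over 5 kb from a peak was 74.8%, and the share of gene starts there was 87.2%. The table holds no gene that was tested and not called, so whether unchanged genes lie at other distances cannot be said.

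**Figure D1:**
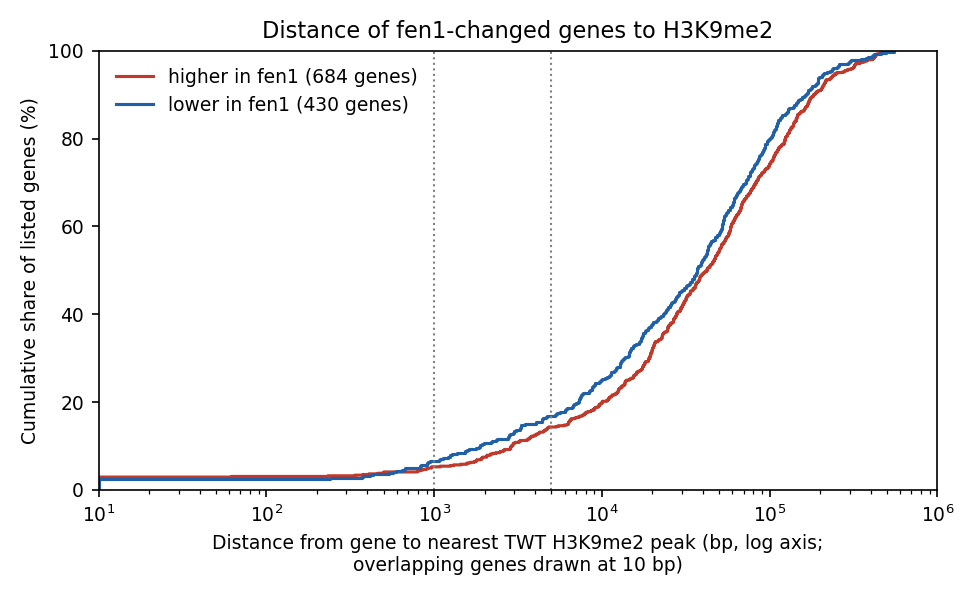
Cumulative share of listed genes (percent) against the distance from gene body to the nearest TWT H3K9me2 peak (bp, log axis), for the 684 genes higher and the 430 genes lower in fen1; dotted lines mark 1 kb and 5 kb and overlapping genes are drawn at 10 bp. Both curves stay under 20% up to 5 kb, and the lower genes run to the left of the higher genes over most of the range beyond 1 kb.

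Whether genes close to H3K9me2 in TWT were more often higher in fen1 was read from the direction of change in each class. The authors called 5.53% of the 20132 genes that the p and q values of their deposited table imply as tested, 3.40% as higher and 2.14% as lower, so that 61.4% of the listed genes were higher. Of the 31 overlapping genes 20 were higher (64.5%, exact Clopper-Pearson 95% interval 45.4 to 80.8%). Under 1 kb, 16 of 33 were higher (48.5%, 30.8 to 66.5%), at 1 to 5 kb 62 of 106 (58.5%, 48.5 to 68.0%) and over 5 kb 586 of 944 (62.1%, 58.9 to 65.2%). For the 64 genes overlapping a peak or under 1 kb from one the share was 56.2%, and 43.9% when peaks scoring under 100 were left out. All 4 class intervals include the 61.4% of the whole table, so at these gene numbers no class stood apart from it in direction. Intervals of this kind cover counting error only, and neighbouring genes are not independent. Across the 1104 genes with a defined ratio, the rank correlation of distance with log2 fold change was 0.06, given as a description.

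**Figure D2:**
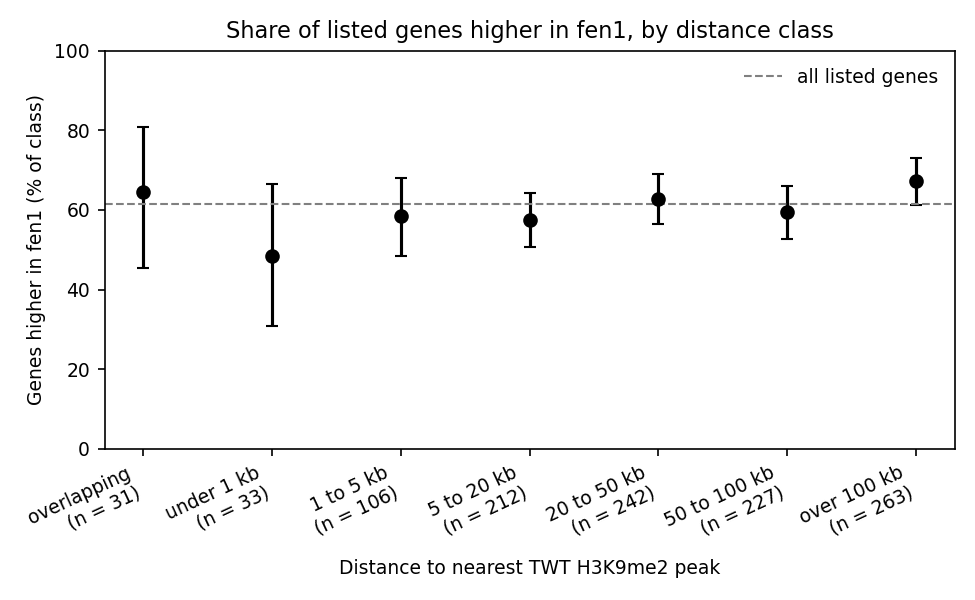
Share of listed genes higher in fen1 (percent, points) with exact 95% intervals (bars) in 7 classes of distance to the nearest TWT H3K9me2 peak; the dashed line is the 61.4% of all listed genes. The interval of each class crosses the line, with the lowest share at 48.5% under 1 kb and the highest at 67.3% over 100 kb.

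The share of near genes that were higher differed with their surroundings, in a split that was not among the planned results. Chromosomes were divided into 1-Mb bins, and the 24 of 121 bins with most H3K9me2 cover, each at least 15.0% covered, held 79.4% of the peaks and 69 of the listed genes (6.19%). In these H3K9me2-rich bins, 14 of the 42 listed genes within 5 kb of a peak or overlapping one were higher (33.3%, exact interval 19.6 to 49.5%). In the other bins, 84 of 128 such genes were higher (65.6%, 56.7 to 73.8%), against 572 of 917 genes over 5 kb away in those bins (62.4%, 59.2 to 65.5%). Genes over 5 kb from a peak in the rich bins were higher in 14 of 27 cases (51.9%, 31.9 to 71.3%). The intervals of near genes in rich and other bins do not overlap, but they count genes as independent, which neighbouring genes are not. No test was made, because the bins were ranked on the peak list and genes of a bin share their surroundings.

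The median TWT level of overlapping genes was the lowest of the 4 classes when all peaks were used. It was 4.15 FPKM per the authors' deposited table (quartiles 1.75 and 17.2), against 8.98 FPKM under 1 kb, 12.5 FPKM at 1 to 5 kb, 10.9 FPKM over 5 kb and 10.9 FPKM over all listed genes. In fen1 the medians per the authors' deposited table were 8.53, 10.4, 11.4 and 13.7 FPKM in the same order. The spread within each class was wide: under 1 kb the quartiles in TWT were 4.90 and 39.5 FPKM, so these medians order the classes without separating them. When peaks scoring under 100 were left out, the median TWT level of the 14 overlapping genes was 10.8 FPKM, against 10.9 FPKM over 5 kb per the authors' deposited table.

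Among the overlapping genes that rose, the one with the largest change was BRCA1 (AT4G21070, chromosome 4, 11248078 to 11252724, TAIR10), which acts with BARD1 in repair of DNA breaks by homologous recombination. It went from 5.29 FPKM in TWT to 28.3 FPKM in fen1 per the authors' deposited table (log2 2.42, q = 0.00173, the smallest q the table holds and one shared by 582 genes). Its peak, at 11251105 to 11251941, had a score of 50.3, just above the floor of 50.0 in the list. AT4G02110, described in the table as a transcription coactivator, rose from 5.40 to 14.9 FPKM per the authors' deposited table (log2 1.46). BRCA1 was the only overlapping gene among the 15 DNA damage genes that were listed.

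Among the rises were 5 genes of membrane transporters and pumps, grouped here after their values were seen and without a share of such genes in the whole table. The ATPase gene AT3G63380 rose from 1.75 to 8.53 FPKM per the authors' deposited table (log2 2.28). ABCB11, an ABC transporter of the P-glycoprotein type, rose from 4.09 to 12.6 FPKM per the authors' deposited table (log2 1.62). The ABC transporter genes ABCA7 (4.10 to 9.14 FPKM) and ABCC7 (1.75 to 2.72 FPKM) and the sulfate transporter gene AST56 (4.95 to 9.75 FPKM) were also higher per the authors' deposited table. All 5 of these were below 5 FPKM in TWT.

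Both ERECTA-like receptor kinases, which act with ERECTA in the patterning of stomata, overlapped a peak and were higher. ERL1 (chromosome 5, 24996129 to 25002340) went from 2.35 to 4.83 FPKM (log2 1.04, q = 0.00173) and ERL2 from 6.45 to 8.88 FPKM (log2 0.46, q = 0.0447) per the authors' deposited table. LOX2, the chloroplast lipoxygenase that feeds jasmonate synthesis after wounding, stood at 104 FPKM in TWT and, the highest fen1 level among the overlapping risers, at 328 FPKM in fen1 per the authors' deposited table (log2 1.66). NADP-ME1, a malic enzyme, rose from 0.65 to 1.72 FPKM per the authors' deposited table (log2 1.40).

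The late embryogenesis abundant gene AT4G21020, of a family that accumulates in drying seeds, went from 0.75 to 2.75 FPKM per the authors' deposited table (log2 1.88, q = 0.0199). The PHD finger gene AT5G58610 rose by a log2 of 1.15, the GH3 family gene AT1G48670 by 0.85, AT3G48770 by 0.80 and the TSO1-like gene SOL1 by 0.72 per the authors' deposited table. All 5 genes of this paragraph were low in TWT, the highest being SOL1 at 4.15 FPKM per the authors' deposited table.

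Extensins are hydroxyproline-rich proteins of the cell wall. Genes that the table describes as extensin-like or hydroxyproline-rich made up 6 of the 31 overlapping genes (19.4%) and none of the 33 under 1 kb. They were 3 of the 106 at 1 to 5 kb, 10 of the 944 farther away (1.06%) and 19 of all 1114 (1.71%). The set rests on the descriptions alone, so it may hold genes of other families. It was formed after the overlapping genes had been seen. Of the 6 overlapping genes, 4 were higher in fen1. HRGP1 went from 50.4 to 113 FPKM (log2 1.16), AT3G54580 from 71.8 to 140 FPKM (log2 0.96), AT3G28550 from 105 to 149 FPKM (log2 0.51) and EXT10 from 16.7 to 34.1 FPKM (log2 1.03) per the authors' deposited table. The remaining pair fell most of all overlapping genes: EXT6 from 19.1 to 0.92 FPKM (log2 −4.37, q = 0.00173) and AT4G08410 from 1.49 to 0.10 FPKM (log2 −3.88, q = 0.0425) per the authors' deposited table. Extensin genes share repeats in their coding sequence, and the sources used here do not say how reads that match several places were treated, in RNA or in ChIP. The part of such reads in these peaks and levels was not tested.

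The other 9 falls took in 6 protein-coding genes. CYP93D1, a cytochrome P450 gene, went from 1.51 to 0.34 FPKM per the authors' deposited table (log2 −2.14, q = 0.0180). RPP1, a resistance gene of the TIR-NBS-LRR class against downy mildew, carried 3 peaks and went from 15.1 to 9.64 FPKM per the authors' deposited table (log2 −0.65). Of the kinase-related genes, AT3G46270 fell by a log2 of 1.05 and AT4G18250 by 0.67 per the authors' deposited table. The ankyrin repeat gene AT5G54710 went from 52.5 to 29.2 FPKM and the subtilase gene AT4G21650 from 17.8 to 12.6 FPKM per the authors' deposited table.

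Another 3 of these were not protein-coding. The pseudogene AT3G46250 fell from 1.68 to 0.71 FPKM per the authors' deposited table. AT2G05914, annotated there as a possible antisense gene of AT2G05915, fell from 1.94 to 0.30 FPKM per the authors' deposited table. The sources used here do not say whether counting used strand, so its reads and those of AT2G05915 cannot be told apart. The rRNA gene AT3G41768 fell from 446 to 283 FPKM per the authors' deposited table (log2 −0.66). It lay within a peak of 13551 bp with a score of 3100, and rRNA genes exist in many copies, so its level and its mark are both uncertain.

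**Figure D3:**
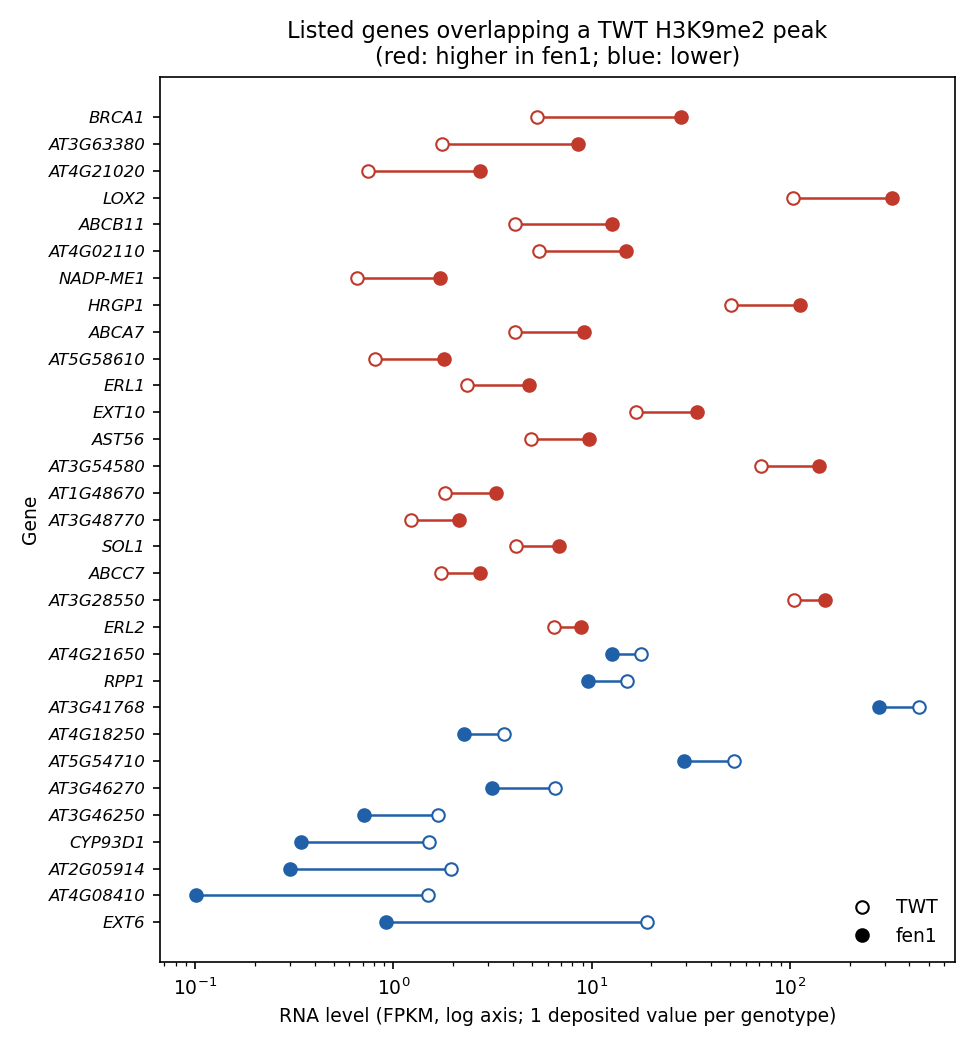
RNA level (FPKM, log axis, 1 deposited value per genotype) in TWT (open circles) and fen1 (filled circles) of the 31 listed genes that overlap a TWT H3K9me2 peak, ordered by log2 fold change, red where higher in fen1 and blue where lower. The 20 risers end with BRCA1 at the top, and EXT6 and AT4G08410 at the bottom have the longest falls.

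The mark sat in the bodies of these genes, away from their starts. The 31 genes overlapped 36 peaks, 4 genes having more than 1, and 26 of the 36 peaks lay wholly inside the gene. Only 4 peaks reached the start of the gene, those of HRGP1, AT2G05914, AT3G41768 and AT5G54710, while 9 reached its end. The centre of a peak lay at a median of 61.6% of the gene's length from the start (quartiles 50.9 and 74.4%). Peaks covered between 10.3% (AST56) and 100% of the gene, with a median of 43.0%, and 3 genes were covered throughout.

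Overlapping genes were long. Their median length was 3580 bp, against 1786 bp over all listed genes. The 279 longest listed genes, from 2666 bp upward, held 21 of the 31, and the 279 shortest, up to 1222 bp, held none. A long gene has more room for a peak, and the part of length in the overlaps was not tested.

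Most of these gene bodies also carried the Polycomb mark. An H3K27me3 peak overlapped 25 of the 31 genes (80.6%, exact interval 62.5 to 92.5%), against 30.3% (15.6 to 48.7%) under 1 kb, 40.6% (31.1 to 50.5%) at 1 to 5 kb and 35.4% (32.3 to 38.5%) over 5 kb. Within the 279 longest genes the figures were 17 of 21 overlapping genes (81.0%) and 91 of 258 others (35.3%), so the contrast was as large at that length. H3K4me3 was on 4 of the 31 (12.9%, 3.63 to 29.8%), namely LOX2, RPP1, ERL2 and AT4G18250, and on 55.6% (52.4 to 58.8%) of genes over 5 kb from H3K9me2.

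The peaks themselves coincided. Of the 36 H3K9me2 peaks on listed genes, 28 (77.8%) overlapped an H3K27me3 peak, and 24 lay entirely within one. Over all 8044 peaks the share was 23.6%, and over the 1660 outside the H3K9me2-rich bins 28.6%. The peaks of BRCA1, LOX2, ERL1, ERL2, ABCB11 and NADP-ME1 were among the 24. Over all H3K9me2 peaks, those that overlapped H3K27me3 had a median width of 1766 bp and the others 610 bp. The median was 1237 bp for the 36 peaks on listed genes, and the part of width in their share was not tested. When H3K9me2 peaks that touch an H3K27me3 peak were set aside, 6 overlapping genes remained, namely AST56 and ABCA7, which rose, and AT2G05914, RPP1, AT4G08410 and AT5G54710, which fell. With 1 library per mark, 2 marks on the same chromatin, 2 marks in different cells and cross-reaction of an antibody cannot be told apart.

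The H3K27me3 peaks at these longer genes were wider, covered less of the gene and scored lower at the median. The peak with most overlap had a median width of 2886 bp and a median score of 108 at the 25 genes, against 1535 bp and 174.5 at the 387 H3K27me3 genes without H3K9me2. H3K27me3 covered a median of 70.4% of the gene against 90.4%, at median gene lengths of 3580 bp and 1783 bp. Their median TWT level was 4.15 FPKM against 5.92 FPKM per the authors' deposited table, and 72.0% (50.6 to 87.9%) against 65.6% (60.7 to 70.4%) were higher in fen1, with overlapping intervals.

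**Figure D4:**
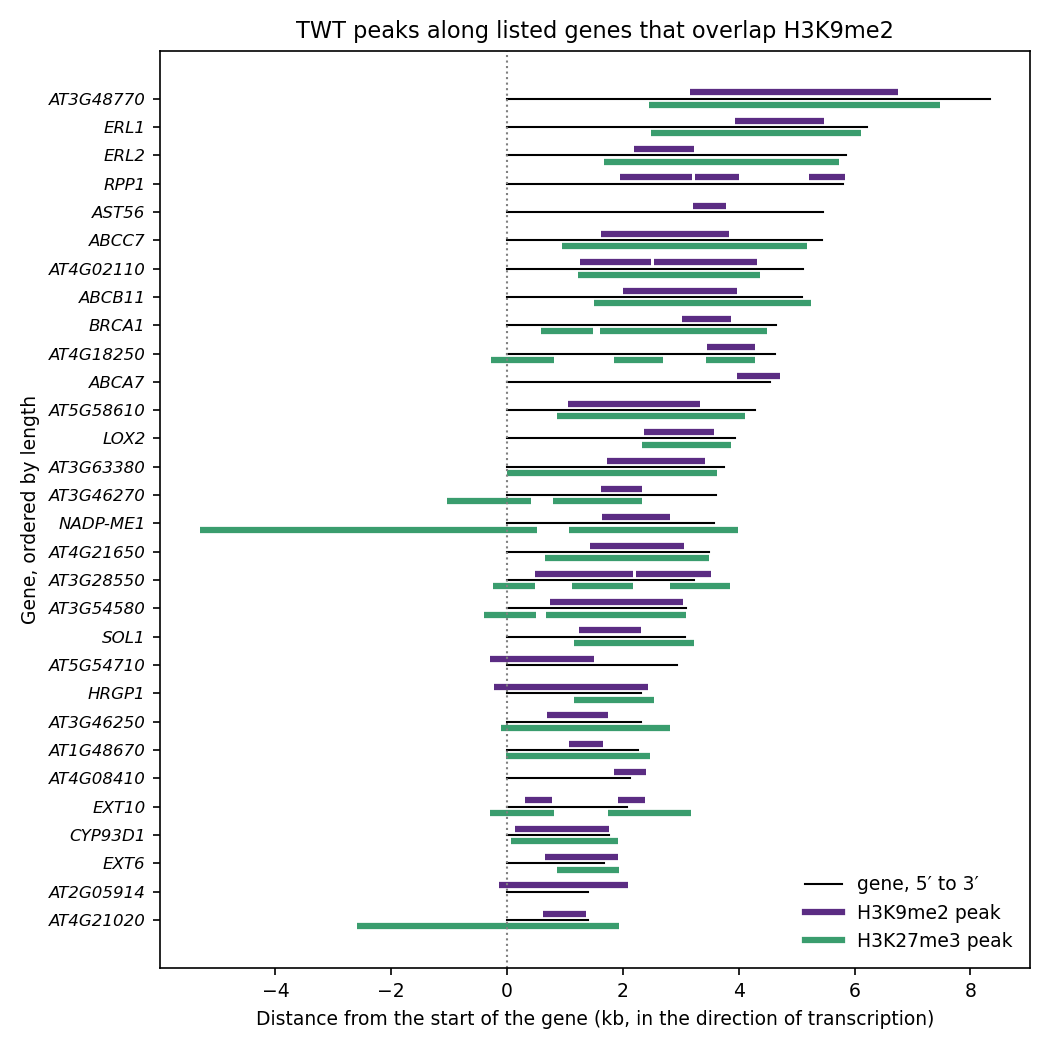
TWT H3K9me2 peaks (purple) and H3K27me3 peaks (green) along 30 of the 31 overlapping genes (black lines, from start to end in the direction of transcription), in kb from the start of the gene; the rRNA gene AT3G41768, inside a peak far wider than itself, is left out. Most purple bars lie beyond the start of the gene and above a green bar.

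Peaks on listed genes scored lower at the median than peaks beside them. The score, the authors' own value per peak, was at a median of 88.4 for the 36 peaks on listed genes and 342 for the 36 peaks within 1 kb of one without touching any, while all 8044 peaks had a median of 235. Of those on genes 20 (55.6%) scored under 100, as did 19.4% of those beside genes and 23.4% of all. Widths differed less, with medians of 1237 bp, 1286 bp and 759 bp. Score and width rose together over all peaks (rank correlation 0.75, a description), and the peaks on genes had a higher median width than all peaks but a lower median score. Outside the H3K9me2-rich bins, the median score was 82.8 for the 33 peaks on listed genes and 158 for all 1660 peaks. A score of 3100 was shared by 168 peaks, so differences among the strongest cannot be read.

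Direction was also read against the score of the peak. With a score under 100 at the best overlapping peak, 14 of 17 genes were higher (82.4%, exact interval 56.6 to 96.2%), and with a score of 100 or more, 6 of 14 (42.9%, 17.7 to 71.1%). The 3 falls under the weaker peaks were those of CYP93D1, AT5G54710 and AT4G18250. The 6 rises under the stronger peaks were those of AT4G02110, AT3G48770, ABCC7 and the extensins AT3G54580, AT3G28550 and HRGP1. The intervals overlap. Of the 14 genes under stronger peaks, 3 lay in the H3K9me2-rich bins, namely AT4G08410, AT2G05914 and AT3G41768, and all 3 fell. None of the 17 under weaker peaks lay there, and the part of place in the contrast was not tested.

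**Figure D5:**
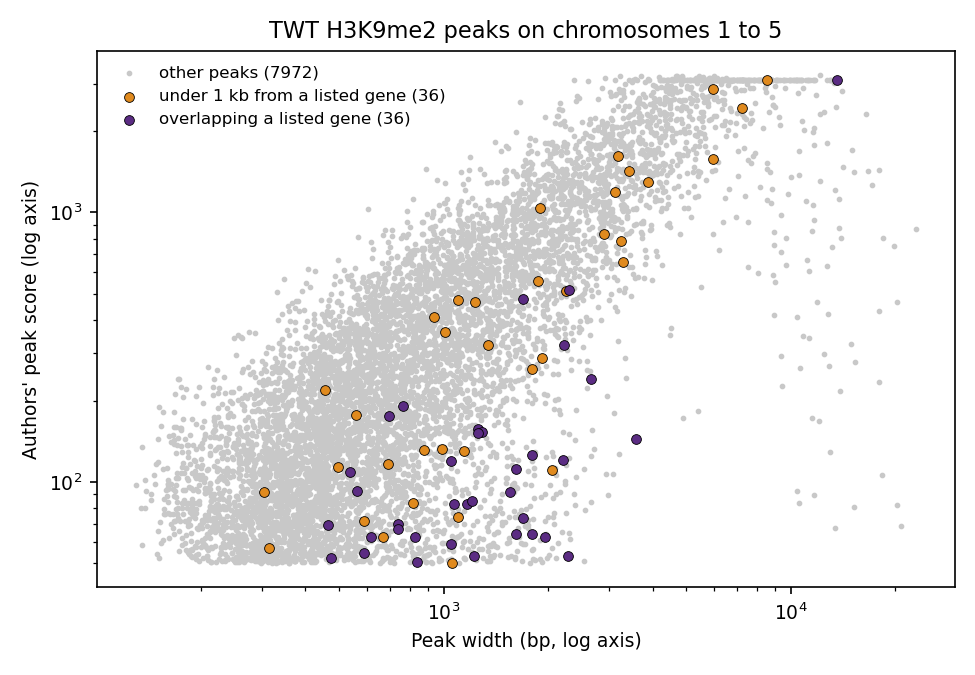
Width (bp, log axis) and authors' score (log axis) of the 8044 TWT H3K9me2 peaks, with the 36 that overlap a listed gene in purple, the 36 under 1 kb from one in orange and the others in grey. Purple points have a median score of 88.4 and an upper quartile of 152, and both purple and orange points reach up to 3100.

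Next to peaks, under 1 kb, the largest fall was that of the non-coding RNA gene AT1G67105 (chromosome 1, 25057479 to 25058264), from 44.2 to 0.88 FPKM per the authors' deposited table (log2 −5.65, q = 0.00173). A narrow peak of 315 bp lay 377 bp upstream. ASN1, an asparagine synthetase gene, fell from 1.47 to 0.32 FPKM per the authors' deposited table (log2 −2.19), with a peak of score 1621 at 668 bp downstream. The receptor-like protein gene RLP19 fell from 5.30 to 1.28 FPKM per the authors' deposited table (log2 −2.05), and a peak 8533 bp wide with a score of 3100 began 536 bp upstream of it. All 33 genes of this class lay beside a TWT peak by definition, and 16 of them were higher in fen1.

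AT4G11000, an ankyrin repeat gene, went from 5.67 to 0.64 FPKM (log2 −3.15), and the WNK kinase gene WNK9 from 1.45 to 0.21 FPKM (log2 −2.82) per the authors' deposited table. PRB1, a basic pathogenesis-related protein gene, went from 7.39 to 1.91 FPKM per the authors' deposited table (log2 −1.95). Their peaks lay 830 bp upstream, 821 bp downstream and 902 bp downstream.

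The largest rise under 1 kb was that of AT4G22960, of unknown function, from 0.58 to 6.39 FPKM per the authors' deposited table (log2 3.47, q = 0.00173). It carried neither H3K27me3 nor H3K4me3, and its H3K9me2 peak of 2046 bp lay 337 bp downstream. AT5G20790 rose from 6.82 to 26.0 FPKM (log2 1.93) and the basic secretory protein gene AT2G15220 from 9.46 to 34.6 FPKM (log2 1.87) per the authors' deposited table, with peaks 965 bp and 898 bp upstream. The ubiquitin-conjugating enzyme gene AT2G18600 rose by a log2 of 1.71, the subtilase gene SBT3.5 by 1.30 and the glutathione transferase gene GSTU22 by 1.16 per the authors' deposited table. The nearest gene to a peak without touching it was NRAMP3, a metal transporter of the vacuole, 62 bp from a peak downstream of it, with 8.98 FPKM in TWT and 14.8 FPKM in fen1 per the authors' deposited table. It was named for its distance after the values had been seen.

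The nearest peak was more often downstream than upstream of near genes, though not under every setting. Of the 139 genes within 5 kb and not overlapping, the nearest peak was upstream of 56 (40.3%, exact interval 32.1 to 48.9%) and downstream of 83, and of the 944 farther genes it was upstream of 450 (47.7%, 44.4 to 50.9%). The intervals overlap. Measured from the start of the gene the near share was 45.3% (36.9 to 54.0%), and the interval also included equal shares with peaks scoring at least 100, with a q under 0.01 and with peaks off H3K27me3. Under 1 kb, 8 of the 13 genes with an upstream peak were higher (61.5%, 31.6 to 86.1%) and 8 of the 20 with a downstream peak (40.0%, 19.1 to 63.9%). At 1 to 5 kb the shares were 58.1% of 43 and 58.7% of 63. Side therefore went with no difference in direction that these numbers could show.

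At 1 to 5 kb lay the gene with the largest fall of the table among genes above 0 in both genotypes, the glutathione transferase gene GSTF14 (chromosome 1, 18458666 to 18459906). It went from 64.7 to 0.54 FPKM per the authors' deposited table (log2 −6.91), and its nearest peak, with a score of 103, was 1566 bp downstream. GRP-3, a glycine-rich protein gene, had a peak 4395 bp upstream and a log2 of −5.83 per the authors' deposited table. AT4G06534 (log2 −3.14), 1877 bp from a peak of 10447 bp, and MLP329 (log2 −2.35) were the next per the authors' deposited table.

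The rises at 1 to 5 kb were led by the cupin gene AT5G38910, from 5.41 to 85.8 FPKM per the authors' deposited table (log2 3.99), with a peak 2479 bp downstream. AT1G47980 rose by a log2 of 3.87, the beta-glucosidase gene DIN2, which is induced in darkness and senescence, by 2.61 and the osmotin gene OSM34 by 2.53 per the authors' deposited table. All 4 of these genes carried H3K27me3, as did GSTF14, GRP-3 and AT4G06534 among the falls, but not MLP329. Over all 106 genes of the class the share was 40.6%.

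Over 5 kb away lay CRU3, a seed storage protein gene, with the largest rise (log2 4.53), and AT2G33830, with the largest fall of that class (log2 −4.09), per the authors' deposited table. Their nearest peaks were 160360 bp and 67510 bp away. GEX1 (log2 4.20, 29665 bp) and BHLH100 (log2 3.89, 216131 bp) were the next rises, and AT3G28320 (log2 −3.38, 19082 bp) and AT5G44440 (log2 −3.32, 9040 bp) the next falls per the authors' deposited table. The genes farthest from any peak were the ferritin gene FER4 (551057 bp, log2 −1.34), NAC047 (543743 bp, log2 1.16) and AT2G40460 (514171 bp, log2 0.61) per the authors' deposited table. Large changes were thus found at every distance.

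Just inside the limit of 1 kb lay DMC1, the meiotic recombinase gene, at 961 bp (log2 0.67) and AT5G20790 at 965 bp, and just outside it CYP706A2 at 1061 bp (log2 −0.93) and AT1G47980 at 1086 bp per the authors' deposited table. Around 5 kb they were ATG8H at 4754 bp (log2 0.62) and XTH31 at 4814 bp (log2 0.53), then APS4 at 5220 bp (log2 −0.82) and LTI78 at 5354 bp (13.6 to 6.81 FPKM) per the authors' deposited table.

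Before level was considered, falls of at least 2-fold made up a larger share of lower genes near H3K9me2 than far from it. Of the lower genes with a defined ratio, 32 of 71 overlapping a peak or within 5 kb fell at least 2-fold (45.1%, exact interval 33.2 to 57.3%), against 95 of 354 over 5 kb away (26.8%, 22.3 to 31.8%). By class the shares were 54.5% of 11, 47.1% of 17 and 41.9% of 43, and the median log2 fold changes per the authors' deposited table were −1.05, −0.98 and −0.91, against −0.69 over 5 kb. Rises showed less of this: 51.0% (40.7 to 61.3%) within 5 kb or overlapping and 46.5% (42.4 to 50.6%) beyond rose at least 2-fold.

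The near lower genes also had lower levels, with a TWT median of 15.4 FPKM against 22.6 FPKM per the authors' deposited table. Among lower genes with a mean over both genotypes up to the median of the table, 12.6 FPKM, the 2-fold shares were 57.9% of 38 near and 48.1% of 133 far. Above it they were 30.3% of 33 (15.6 to 48.7%) and 14.0% of 221 (9.73 to 19.3%). Near exceeded far in both, with overlapping intervals. The near falls include GSTF14, GRP-3 and AT1G67105, and 16 of the 28 near lower genes of the H3K9me2-rich bins fell at least 2-fold (57.1%), against 16 of 43 near lower genes elsewhere (37.2%). Far lower genes did so in 41.7% of 12 cases in the rich bins and 26.3% elsewhere. The share was thus higher in the rich bins at both distances, though the far share there rests on 12 genes. The parts of level and of place in the size of the falls were not tested.

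Genes at peaks next to each other in the list changed in the same direction in some cases and in opposite directions in others. Of the 64 genes overlapping a peak or under 1 kb from one, 9 pairs were assigned to such peaks, and 5 pairs changed in the same direction. The genes of a pair lay 2377 to 183235 bp apart. As 36 of the 64 genes were higher and 28 lower, unlinked pairs can agree as well, and their share was not computed. No 2 of the 64 genes shared a nearest peak. AT3G54580 and HRGP1, 2377 bp apart, both rose, AT4G21020 and BRCA1, 18500 bp apart, both rose, and AT3G46250 and AT3G46270, 8233 bp apart, both fell. ABCI8 and MSRB5, 15943 bp apart, went opposite ways, as did EXT10 and CYP93D1 at 94231 bp. By chromosome, 13 of the 31 overlapping genes were on chromosome 3, which held 214 of the listed genes, and 3 on chromosome 1, which held 266.

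Of 20 genes of H3K9 and DNA methylation, among them KYP, SUVH5, SUVH6, CMT2, DDM1 and MET1, 1 was listed, which is near the 5.53% called over all tested genes. This was CMT3, higher in fen1 at 24.6 against 17.9 FPKM per the authors' deposited table (log2 0.46, q = 0.0226), 89667 bp from the nearest peak. SDC, FWA, QQS and PAI2, all repressed through DNA methylation in other work, were not listed. Being unlisted leaves unknown whether a gene was steady or too weak for a test.

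Of 26 DNA damage genes 15 were listed, all higher, beside 3.40% of all tested genes called as higher. This list was chosen with earlier results of these data known, so its share is a description and no test of enrichment. The median log2 fold change of the 15 was 1.57 per the authors' deposited table, against 0.95 for all higher genes. BRCA1 overlapped a peak, the ribonucleotide reductase gene TSO2 lay 3639 bp from one, and the other 13 were over 5 kb away, with a median distance over the 15 of 67816 bp. SMR7, the cell cycle inhibitor gene with the largest rise of the list (log2 3.68 per the authors' deposited table), lay 5941 bp from a peak.

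The table names 2 transposable element genes, and both fell, as did 38.6% of all listed genes. AT5G35777, 1922 bp downstream of a peak of 3382 bp, went from 0.72 to 0.23 FPKM, and AT3G17050, 50727 bp from a peak, from 10.4 to 5.33 FPKM per the authors' deposited table. Of the 5 markers of green tissue 2 were listed: the photosystem gene PSAF (2024 FPKM in TWT) and the light-harvesting gene LHB1B1 (2279 FPKM) were high per the authors' deposited table, and both were lower in fen1. Of 4 seed genes 3 were listed, and CRU3, CRA1 and OLEO2 were at 0.33, 2.61 and 0.96 FPKM in TWT per the authors' deposited table. Over all tested genes 5.53% were called, 3.40% as higher and 2.14% as lower. The markers are few and were chosen with earlier results of these data known, so their counts are descriptions. To return to the 3 seed genes, they changed in the same direction. All 3 were higher in fen1 and over 5 kb from H3K9me2, as was EXPA7, an expansin gene of root hairs and 1 of 2 root markers, and the part of tissue makeup in the changes was not tested.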

How the data were processed

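RNA and ChIP libraries of TWT and fen1 seedlings numbered 14, with groups taken from their titles. Per the submitters' processing notes, the tools were Cuffdiff 2.1.1, TopHat2 2.1.1, SAMtools and Bowtie 0.12.9 with the genome build TAIR10, with no role or order given. The authors deposited 1 value per genotype, read as FPKM from the Cuffdiff layout per the file headers, with log2 ratios of fen1 to TWT without pseudocount, p-values and q-values. All 1114 genes have a q under 0.05, up to 0.0497, and 10 genes listed at 0 in a genotype have no ratio. The number tested, 20132, was recomputed from p, q and rank. The deposited peak lists give positions and the authors' peak score. Peak names point to MACS, for which the sources used here give no version, control or settings. Depth per library is unknown, and fen1, H3 and input ChIP were not analysed here.

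Positions were made 1-based. Distance is the number of bases between gene body and nearest peak edge, and an overlap is at least 1 bp. Where several peaks overlap, the one with most overlap gives width and score. Side was read from the strand. Symbols came from a table of the TAIR10.1 assembly used for names alone (1113 of 1114 matched). In the lists, 1 entry was dropped because that table gives it another symbol. Python 3.11.15, pandas 2.3.3 and scipy 1.17.1 were used, and the distance code was checked on small intervals with known answers.

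No test beyond the authors' own was made, since there is 1 value per genotype and 1 library per mark. Shares have exact Clopper-Pearson 95% intervals. Members, lists and limits were chosen with earlier results of these data known. Named were all overlapping genes, the largest rises and falls of each other class (6, 4 and 3 of each) with at least 1 FPKM in a genotype, genes at the limits, the farthest genes, FEN1, transposable element genes and listed members of the gene lists, of which not every one is given here. Alternatives were 7 planned and 3 added after seeing the data.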

Additional observations from a re-analysis of the deposited data

Results flagged for a closer look

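The H3K9me2 list also holds 7 peaks on organelle sequences, which lie outside every comparison above: 6 on the chloroplast sequence, 428 to 2025 bp wide with scores from 51.0 to 1054, and 1 of 257 bp on the mitochondrial sequence with a score of 64.2.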

How the results depend on the processing

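Across 10 alternatives and 12 results, 106 of 119 recomputed values stayed within the interval of the main value, or within 1.5 times a count. Inside those wide intervals, peaks scoring at least 100 gave 43.9% higher among genes overlapping or under 1 kb, where the main value was 56.2%, and a median of 10.8 FPKM for overlapping genes, where it was 4.15 FPKM. Merging peaks under 1000 bp apart, an overlap of at least 100 bp, a minimum of 1 FPKM, leaving out extensin-like and rRNA genes, and leaving out genes of the H3K9me2-rich bins moved no value outside its interval. With peaks scoring at least 100, overlapping genes numbered 14 and genes at 1 to 5 kb 70, and the median distances were 72269 bp for higher and 55592 bp for lower genes. With peaks at least 1000 bp wide those medians were 68622 and 57804.5 bp. Measured from gene starts, 4 genes overlapped and 21 lay under 1 kb, and no median level could be given for the overlapping class. With a q under 0.01, 67.9% of genes over 5 kb were higher, and the median for lower genes was 28870 bp. With H3K9me2 peaks that overlap no H3K27me3 peak, an alternative chosen after seeing the data, 6 genes overlapped and the medians were 68035 and 52646 bp. The fewer peaks of these settings lengthen distances by construction; the cause of the shift at q under 0.01 was not tested. No paired analysis was possible because the table holds 1 value per genotype, for which reason no replicate could be left out either. Depth is unknown, so genes of low FPKM and peaks near the score floor are the least certain.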
